A study of Mus musculus with 9 samples.

Results

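The genes described here encode the subunits of the transcription factor NF-kB and proteins grouped here as its feedback inhibitors. Most of these proteins restrain NF-kB after it has been activated, but the products of Nfkbiz and Bcl3 can activate or repress genes. There were 10 genes, chosen by name but with earlier results of these data known. They were the subunit genes Nfkb1, Nfkb2, Rela, Relb and Rel, and the inhibitor genes Nfkbia, Nfkbie, Nfkbiz, Bcl3 and Tnfaip3. Each was read from a probe annotated with that symbol alone, which gave values for 9 of the 10 among 22180 genes tested. Nfkb1 was not analysed here, because no probe carried its symbol in the probe table used. Total RNA was measured on 1 single-channel array per sample, in dendritic cells (DCs) sorted as CD11c+MHCclassII+ from mouse spleen, with 6 control samples and 3 knockout samples. All samples were labelled C57BL/6 and naive. The knockouts (C/EBPβ-/-) came from CD11c.Cre x C/EBPβflox/flox animals, so that Cre recombinase removes the floxed Cebpb gene wherever the CD11c promoter is active. The controls (C/EBPβ+/+) came from C57BL/6 and CD11c.Cre mice, and the labels do not say which control came from which, so some controls may lack the Cre that all knockouts carry. Neither the age of the mice nor whether replicates came from separate animals is stated, and the tests therefore speak to the spread between samples, part or all of which may be technical. C/EBPβ is a leucine zipper transcription factor of myeloid cells, and the design text asks what it does for DC maturation without infection or tumour.

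NF-kB is a family of dimers built from the products of Nfkb1, Nfkb2, Rela, Relb and Rel. In a resting cell, inhibitor proteins of the IkB family hold the dimers in the cytoplasm until a kinase complex marks the inhibitors for destruction and the dimers enter the nucleus. Several of the genes that NF-kB then switches on encode its own inhibitors, which ends the response. In DCs this pathway drives maturation, that is the rise of costimulatory molecules, cytokines and chemokines after microbial or CD40 signals, and a second, slower branch through the products of Nfkb2 and Relb is needed to form some splenic DC subsets.

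Most members had a match to the NF-kB consensus sequence beside their start site. Feedback inhibitors are by definition genes that NF-kB switches on, so the choice of members favours such matches and their share is no independent evidence. The RefSeq promoter table (GRCm38.p6, 250 bases before to 50 after each start) held 10 windows for 7 of the members. It gave none for Nfkb1, Relb and Nfkbiz. The consensus was searched on both strands, and overlapping matches were kept. It was found in 8 of the 10 windows, from 6 of the 7 genes, against 8.46% of all 32851 windows of the same length. The exception was Rela. The 3 Nfkb2 windows and 2 Tnfaip3 windows belong to alternative starts, and the downstream pair of Nfkb2 windows overlap and share a match. A C/EBP motif, TTGCNNAA on either strand, was found in 0 of the 10 windows and in 10.8% of all windows, which says only that these letters were not there. The 150 bases that end just before the start site are shown for 5 members, with the matches in capitals, because such sites are the known route by which NF-kB feeds back on several of its own genes. Where the table lists several starts, the most upstream is shown. A match is a description and was not shown to be bound in these cells.
Tnfaip3, chr10:19015411-19015560, minus strand: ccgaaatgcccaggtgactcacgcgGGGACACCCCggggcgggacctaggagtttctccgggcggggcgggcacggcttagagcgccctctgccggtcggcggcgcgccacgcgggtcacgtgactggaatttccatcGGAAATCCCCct
Nfkbia, chr12:55492648-55492797, minus strand: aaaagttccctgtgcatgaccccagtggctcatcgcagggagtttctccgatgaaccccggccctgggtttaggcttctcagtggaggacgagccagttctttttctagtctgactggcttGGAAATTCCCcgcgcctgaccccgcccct
Nfkbie, chr17:45555550-45555699, plus strand: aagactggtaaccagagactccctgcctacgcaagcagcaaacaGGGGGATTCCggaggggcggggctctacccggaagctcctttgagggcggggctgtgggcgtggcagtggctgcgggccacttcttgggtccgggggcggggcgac
Nfkb2, chr19:46304587-46304736, plus strand: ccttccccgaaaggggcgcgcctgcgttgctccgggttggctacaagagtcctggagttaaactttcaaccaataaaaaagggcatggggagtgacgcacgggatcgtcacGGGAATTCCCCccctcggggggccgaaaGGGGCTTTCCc
Rel, chr11:23770970-23771119, minus strand: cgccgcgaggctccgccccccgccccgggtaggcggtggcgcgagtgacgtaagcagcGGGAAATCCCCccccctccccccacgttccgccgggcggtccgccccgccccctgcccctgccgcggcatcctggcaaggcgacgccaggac
The first match began 125 bases before the start in Tnfaip3, 29 in Nfkbia, 106 in Nfkbie, 39 in Nfkb2 and 92 in Rel, and a later one began 12 bases before the start in Tnfaip3 and 11 in Nfkb2. In Nfkb2 and Rel the run of 11 capitals holds 2 overlapping matches, 1 base apart. The match in Bcl3, GGGAAGTCCC, lay just after the start.

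No measured NF-kB subunit or feedback inhibitor gene passed the test between knockout and control, and the largest difference, that of Tnfaip3, was 1.29-fold. All 9 measured members had a higher mean in the knockout, as 45.0% of all genes did, by 0.036 to 0.37 on the log2 scale with a median of 0.22, against a median of -0.014 over all genes. The adjusted p of the 9 ranged from 0.13 to 0.84 (limma, Benjamini-Hochberg over all genes, threshold 0.05). Of all genes 0.906% passed, 0.415% higher and 0.491% lower. At an unadjusted limma p under 0.05 there were 4 of 9 members, all higher in the knockout (Nfkbiz, Tnfaip3, Rel and Nfkbie), and 14.3% of all genes, or 5.5% counting only the higher ones. The groups overlapped in every one of the 9 members (0 of 9 separate), whereas in 7.39% of all genes the knockouts were all above or all below the controls. The members were chosen with earlier results of these data known, so their shares are no independent evidence. Without knockout replicate 3, Tnfaip3 alone passed (adjusted p = 0.019, with 0.821% of all genes past the threshold), and with weights for each array it also passed alone (adjusted p = 0.023, 2.94% of all genes). Its adjusted p was 0.29 when knockout replicate 1 was dropped and 0.37 when replicate 2 was dropped, and reached 0.43 over the alternatives tried. Because sorted cells were measured in bulk, a change in the share of a cell type and a change in RNA per cell cannot be told apart.

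Cebpb itself checked the labels, with log2 intensities of 5.37, 5.60 and 5.42 in the knockouts and 6.64 to 7.15 in the controls. Array medians lay between 5.49 and 5.56, and the control means of the 9 members between 9.47 and 12.25, so each member was read well above the middle of its arrays. Of 12 measured DC markers, all had a control mean above the array median, among them Itgax (12.16), which encodes CD11c, and the MHC class II gene H2-Ab1 (13.68). Their mean differed from the control mean by -0.069 to 0.052 in the controls and by -0.056 to 0.048 in the knockouts. Of these 12 markers 1 rose, Cd209a, which encodes a lectin homologous to DC-SIGN, by 0.54 (limma adjusted p = 0.046), and 0 fell. Knockout replicate 3 stood apart by its B cell markers, whose mean over 13 genes was 0.73 above the control mean, against -0.14 and 0.18 in the other knockouts and -0.10 to 0.16 in the controls. Values without this sample are given below for each member.

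**Figure D1:**
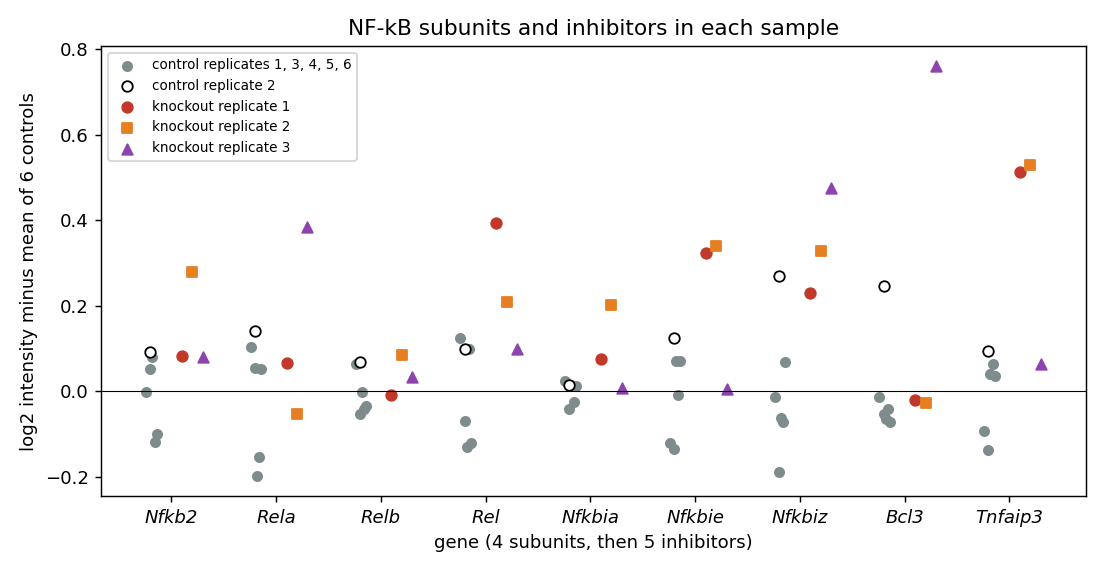
Log2 intensity of each measured NF-kB gene in each of the 9 samples, as the difference from the mean of the 6 controls. Knockout replicates 1 and 2 (circle and square) stand highest for Tnfaip3 and Nfkbie, knockout replicate 3 (triangle) for Bcl3, Rela and Nfkbiz, and control replicate 2 (open circle) is the highest control in 7 of the 9 genes.

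Among the subunits, Rel and Rela encode c-Rel and p65, which carry the activation domains of the rapid branch. Rel (probe 17261107) had a log2 intensity of 12.12 at the lowest, 12.26 at the median and 12.37 at the highest of the 6 controls, and of 12.64, 12.46 and 12.35 in knockout replicates 1 to 3. Knockout replicates 1 and 2 lay above every control, and replicate 3 within their range. The mean was 12.25 ± 0.12 (SD, n = 6) in controls and 12.48 ± 0.15 (SD, n = 3) in knockouts, a difference of 0.23 (SE 0.087, 95% confidence interval 0.041 to 0.43, limma adjusted p = 0.25). Leaving out knockout replicate 1 made it 0.15, and leaving out replicate 3 made it 0.30. Rela (probe 17356490) ranged from 11.08 through a median of 11.33 to 11.42 in the controls and stood at 11.34, 11.22 and 11.66 in the knockouts. Its excess came from replicate 3 alone, since the other knockouts lay inside the control range. The difference was 0.13 (SE 0.11, interval -0.11 to 0.37, adjusted p = 0.65), and without replicate 3 it was 0.0063.

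Nfkb2 and Relb encode p100, the precursor of p52, and its partner RelB, the dimer of the slower branch. Nfkb2 (probe 17359967) spanned 10.14 to 10.35 in the controls with a median of 10.29, and was 10.34, 10.54 and 10.34 in the knockouts, so that only replicate 2 exceeded the controls. The difference was 0.15 (SE 0.073, interval -0.015 to 0.31, limma adjusted p = 0.40). It was 0.081 when that replicate was dropped and 0.18 when replicate 3 was dropped. Relb (probe 17487325) was the flattest of the subunits. Its controls ran from 10.35 through 10.38 to 10.47, and its knockouts were 10.39, 10.49 and 10.44. The groups overlapped, with a difference of 0.036 (SE 0.056, adjusted p = 0.84), and of 0.037 without replicate 3. Its interval of -0.087 to 0.16, or 0.941- to 1.12-fold, bounds the change of Relb most narrowly among the subunits, and the intervals of Nfkb2 and Rela reached 1.24- and 1.29-fold.

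Nfkbia and Nfkbie encode IkB alpha and IkB epsilon, cytoplasmic inhibitors that are destroyed on activation and made again in its wake. Nfkbia (probe 17281219) was the steadiest member in the controls, from 11.45 through a median of 11.50 to 11.51, a range of 0.066. The knockouts were 11.56, 11.69 and 11.50, with replicates 1 and 2 above every control. The mean moved from 11.49 ± 0.026 (SD, n = 6) to 11.58 ± 0.098 (SD, n = 3), by 0.094 (SE 0.057, interval -0.032 to 0.22, limma adjusted p = 0.51), which allows a difference of up to 1.17-fold. The difference was 0.041 when knockout replicate 2 was dropped and 0.14 when replicate 3 was dropped. Nfkbie (probe 17337927) lay between 10.89 and 11.15 in the controls, with a median of 11.06, and at 11.35, 11.36 and 11.03 in the knockouts. As in Rel and Nfkbia, replicates 1 and 2 were above every control and replicate 3 was not. The difference was 0.22 (SE 0.091, interval 0.022 to 0.42, adjusted p = 0.30), and 0.33 without replicate 3 (adjusted p = 0.11).

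Nfkbiz and Bcl3 encode IkB zeta and Bcl-3, nuclear members of the IkB family that bind DNA-bound dimers and can activate or repress genes. Nfkbiz (probe 17330967) had the smallest adjusted p of the members. Its controls ran from 9.42 through 9.57 to 9.88 and its knockouts were 9.84, 9.94 and 10.08. All 3 knockouts lay above 5 of the controls, and only control replicate 2, at 9.88, reached into their range. The mean went from 9.61 ± 0.16 (SD, n = 6) to 9.95 ± 0.12 (SD, n = 3), a difference of 0.34 or 1.27-fold (SE 0.096, interval 0.13 to 0.56, limma adjusted p = 0.13). It was 0.28 (adjusted p = 0.32) without replicate 3.

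Bcl3 (probe 17487457) had the widest range of any member. It read 9.40 at the lowest, 9.42 at the median and 9.71 at the highest of the controls, and 9.45, 9.44 and 10.23 in the knockouts. Knockout replicate 3 stood 0.51 above the highest control, while the other knockouts lay among the controls. The difference of 0.24 (SE 0.16, interval -0.11 to 0.58, adjusted p = 0.55) therefore rested on 1 sample, and without knockout replicate 3 it was -0.023.

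Tnfaip3 encodes A20, an enzyme that edits ubiquitin chains and shuts off signalling upstream of the kinase complex, and whose loss in DCs is known to cause inflammation in mice. Its probe (17239597) read 10.18 at the lowest, 10.36 at the median and 10.41 at the highest of the controls, and 10.83, 10.85 and 10.38 in the knockouts. Knockout replicates 1 and 2 were above every control by 0.42 and 0.43, and replicate 3 lay inside the control range. The mean went from 10.32 ± 0.093 (SD, n = 6) to 10.69 ± 0.26 (SD, n = 3), a difference of 0.37 or 1.29-fold (SE 0.10, interval 0.14 to 0.60, limma adjusted p = 0.13). Without knockout replicate 3 the difference was 0.52 with adjusted p = 0.019. When replicate 1 or replicate 2 was dropped instead, it was 0.30 (adjusted p = 0.29) or 0.29 (adjusted p = 0.37). Over all alternatives its adjusted p ranged from 0.019 to 0.43.

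**Figure D2:**
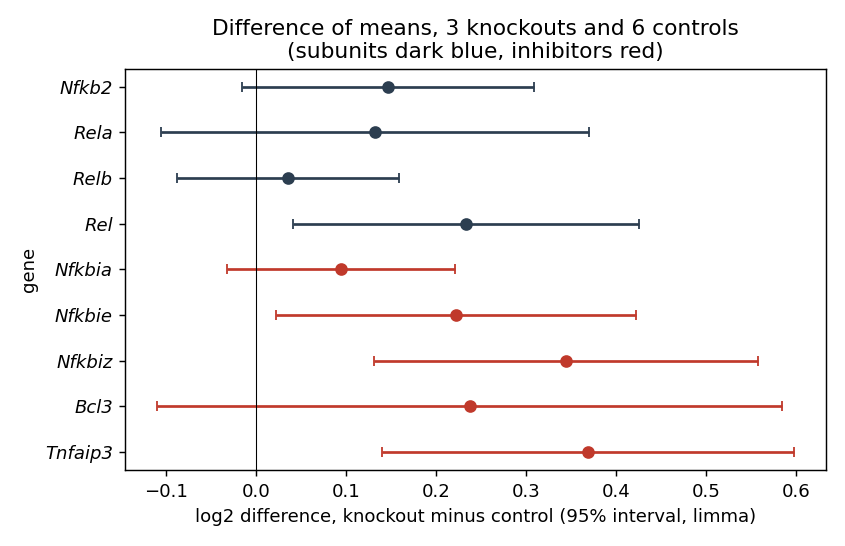
Difference of mean log2 intensity between the 3 knockouts and 6 controls for each measured gene, with limma's 95% confidence interval. The 9 differences are above 0 and the intervals of Rel, Nfkbie, Nfkbiz and Tnfaip3 do not reach 0, yet none passed after adjustment over all genes.

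The knockout samples were high in different members. Replicate 1 exceeded every control in 4 of 9 members (Rel, Nfkbia, Nfkbie and Tnfaip3), as it did in 14.9% of all genes. Replicate 2 exceeded every control in 7 of 9, all but Rela and Bcl3, as it did in 13.7% of all genes. Replicate 3 did so in 3 of 9 (Rela, Nfkbiz and Bcl3), against 17.1% of all genes. So the genes above every control in replicate 1 were also above every control in replicate 2, and Nfkbiz was the only one that replicates 2 and 3 had in common. With replicate 3 left out, the groups no longer overlapped in 4 of 9 members (Rel, Nfkbia, Nfkbie and Tnfaip3), against 14.4% of all genes. With replicate 1 left out they did not overlap in 1 of 9 (Nfkbiz, 14.6% of all genes), and with replicate 2 left out in 0 of 9 (12.0% of all genes).

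**Figure D3:**
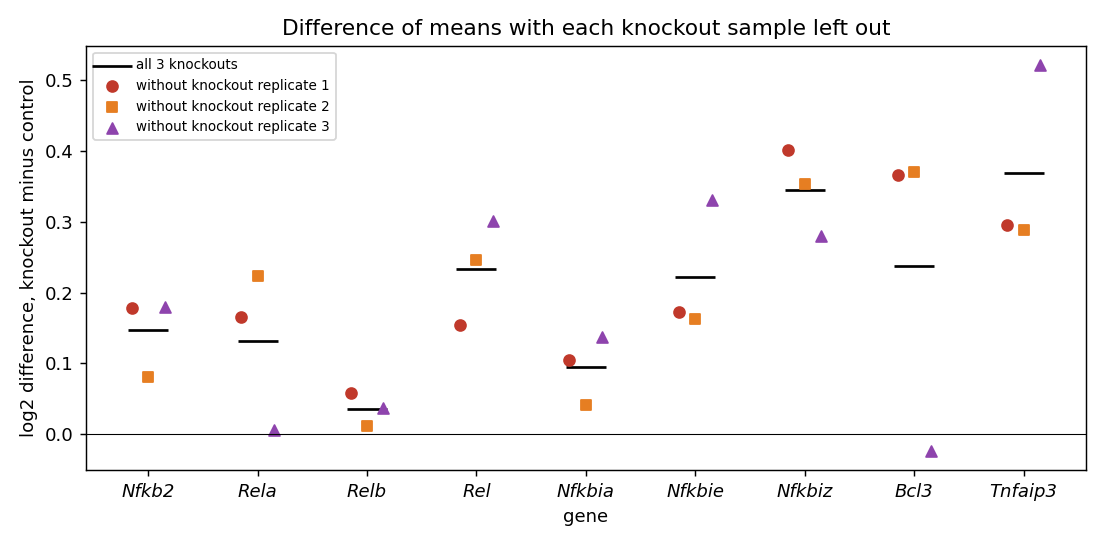
Difference of means for each measured gene with all samples (bar) and with each knockout sample left out in turn. Leaving out knockout replicate 3 (triangle) takes Bcl3 from 0.24 to -0.023 and Rela from 0.13 to 0.0063, and takes Tnfaip3 from 0.37 to 0.52.

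The controls were not alike either. Control replicate 2 was the highest control in 7 of 9 members, as it was in 17.1% of all genes, and control replicate 1 was the highest for Rel and Nfkbia. Without control replicate 2 the knockouts lay above all remaining controls in Nfkbiz and Nfkb2 (2 of 9 members, against 9.85% of all genes whose groups did not overlap), and without control replicate 1 in Rel (1 of 9, against 8.92%). The margins of Nfkb2 and Rel were very narrow. Relative to the control mean, Nfkb2 stood at 0.0795 in knockout replicate 3 and 0.0793 in control replicate 4. Rel stood at 0.0986 in knockout replicate 3 and 0.0977 in control replicates 2 and 5. Averaged over the 5 inhibitors, the knockouts stood 0.22, 0.27 and 0.26 above the control mean, while the controls ran from -0.11 (replicate 3) to 0.15 (replicate 2). The medians over the inhibitors were 0.23, 0.33 and 0.064 in the knockouts. In replicate 3 the average was carried by Bcl3 (0.76) and Nfkbiz (0.48), while Tnfaip3, Nfkbia and Nfkbie stood at 0.064, 0.0078 and 0.0044. Averaged over the 4 subunits, the knockouts stood at 0.13, 0.13 and 0.15 and the controls ran from -0.063 (replicate 4) to 0.10 (replicate 2). No test was run on these averages.

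Other gene lists also differed between samples. Immediate early genes respond within minutes to stimulation and to the handling of cells, and 0 of 22 passed. Their mean was 0.17, 0.26 and 0.15 above the control mean in the knockouts, and relative to the same mean it was 0.23 in control replicate 2 and -0.19 in control replicate 1. Of 14 monocyte and macrophage markers 1 rose (Ace) and 0 fell, and 7 had an unadjusted limma p under 0.05, against 14.3% of all genes. Their mean ranged from -0.17 to 0.17 in the controls and from 0.21 to 0.42 in the knockouts. The differences of the single markers were uneven, from -0.066 to 1.16 with a median of 0.24, and Nr4a1 is also on the immediate early list. Of 13 red pulp macrophage markers 0 rose or fell and 8 had an unadjusted limma p under 0.05, against the same 14.3%. For these markers the knockouts had means of 0.21, 0.67 and 0.57, while control replicate 2 had 0.55 and control replicate 3 had -0.55. The B cell list had 0 of 13 past the threshold and a range of -0.14 to 0.73 in the knockouts, where the 0.73 belonged to replicate 3, the sample in which Bcl3 and Rela were high. Of 8 plasma cell markers 2 rose (Prdm1 and Jchain), with means of -0.090 to 0.15 in the controls and 0.40 to 0.54 in the knockouts. Markers of plasmacytoid DCs, 0 of 10 past the threshold, spanned -0.12 to 0.20 over the controls and reached 0.43 with knockout replicate 3. None of the macrophage markers had a control mean below the array median. The part of these cells or of handling in the NF-kB values was not tested.

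**Figure D4:**
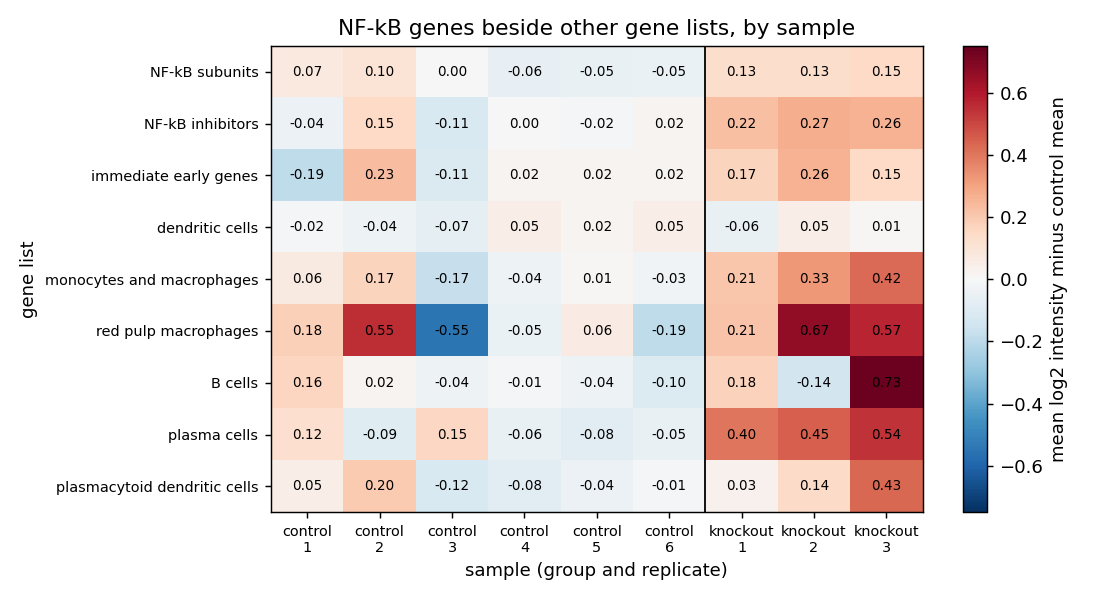
Mean log2 intensity of each gene list in each sample, relative to the mean of the 6 controls, with the value in each cell and red for higher. The inhibitors (second row) average 0.22 to 0.27 in the knockouts, with medians of 0.23, 0.33 and 0.064, and 0.15 in control replicate 2, the control in which immediate early genes (0.23) and red pulp macrophage markers (0.55) are also highest.

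Beyond the subunits and feedback inhibitors, few genes of the pathway passed the adjusted threshold, and all of these but Ltb were on the target list. The split between targets and the other lists depends on where each gene was placed. Of 114 other genes on 5 lists, 4 rose and 2 fell, or 5.26%, against 0.906% of all genes. The lists were written with earlier results of these data known, among them those of Mmp9, Ccl17 and Ccl22, so this share is no independent evidence. The count was 3 without control replicate 1 or without knockout replicate 2.

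Of 15 other inhibitors, 0 passed, with a median of 0.016. At an unadjusted limma p under 0.05, in either direction, there were 5 of the 15, against 14.3% of all genes. The groups did not overlap in 4, against 7.39%. The nearest to the threshold was Tnip3, whose product ABIN-3 binds A20. It read 7.23 at the lowest, 7.65 at the median and 7.88 at the highest of the controls and 8.52, 9.03 and 8.11 in the knockouts, all above every control. The difference was 0.95 or 1.93-fold (SE 0.20, adjusted p = 0.054). Pdlim2, whose product directs p65 to degradation, differed by -0.22 (adjusted p = 0.19) and Otulin, which cleaves linear ubiquitin chains, by -0.18 (adjusted p = 0.22). In both Pdlim2 and Otulin the knockouts lay below every control.

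Of 28 kinases and adaptors, 0 passed (5 at an unadjusted limma p under 0.05, against 14.3% of all genes), with a median of 0.015. Irak3, an inhibitory member of the kinase family downstream of Toll-like and interleukin-1 receptors, differed by 0.47 (adjusted p = 0.080), Irak2 of the same family by 0.27 (adjusted p = 0.11) and the ubiquitin ligase Traf6 by 0.25 (adjusted p = 0.27). In Irak3 and Irak2 the knockouts lay above every control, and the groups did not overlap in 3 of the 28, against 7.39% of all genes. Of 19 receptors, 0 passed (6 at an unadjusted limma p under 0.05, against 14.3% of all genes), with a median of 0.093. The receptor for tumour necrosis factor Tnfrsf1b differed by 0.43 (adjusted p = 0.13), with the knockouts above every control. The sensors of bacterial cell wall Nod2 and Nod1 differed by 0.24 and -0.20 (adjusted p = 0.22 and 0.23). The groups did not overlap in 3 of the 19 receptors, against 7.39% of all genes.

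At an unadjusted limma p under 0.05 there were 5 of 12 ligands, against 14.3% of all genes. After adjustment 1 ligand fell and 0 rose. This was Ltb, which encodes lymphotoxin beta, a ligand that engages the slower NF-kB branch. Its log2 intensity was 10.94 at the lowest, 10.98 at the median and 11.23 at the highest of the controls and 10.65, 10.67 and 10.59 in the knockouts, all below every control. It fell by 0.40 (SE 0.080, limma adjusted p = 0.048), from 11.04 ± 0.13 (SD, n = 6) to 10.64 ± 0.042 (SD, n = 3). The call was lost whichever sample was left out, with adjusted p from 0.056 to 0.15.

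Among 40 targets, 4 rose and 1 fell, and their median difference was 0.24. At an unadjusted limma p under 0.05 there were 22 of the 40, against 14.3% of all genes, 35 had a higher mean in the knockout, against 45.0%, and in 11 the groups did not overlap, against 7.39%. The target list was also written with earlier results of these data known, so these shares are no independent evidence. Vcam1 is also on the red pulp macrophage list and Irf4 on the plasma cell list. Fas, the death receptor, read 7.63 at the lowest, 7.74 at the median and 7.91 at the highest of the controls and 8.41, 8.32 and 8.40 in the knockouts, and rose by 0.63 (SE 0.068, limma adjusted p = 0.0042). The chemokine Cxcl16, a membrane-bound ligand and scavenger receptor, read 11.60, 11.71 and 11.88 at the same points of the controls and 12.00, 12.23 and 12.12 in the knockouts, and rose by 0.40 (SE 0.078, adjusted p = 0.046). The CCR4 ligands Ccl17 and Ccl22 rose by 0.97 and 0.45 (adjusted p = 0.0024 and 0.025), and the gelatinase gene Mmp9 fell by 2.35 (adjusted p = 2.9e-06). In each of these 5 the knockouts lay outside the control range. Fas, Ccl17 and Mmp9 kept their calls whichever sample was left out, but against controls 1 to 3 alone only Mmp9 of these 3 passed, with adjusted p of 0.17 for Fas and 0.11 for Ccl17. Ccl22 lost its call when control replicate 1, control replicate 6, knockout replicate 2 or knockout replicate 3 was left out (adjusted p of 0.051, 0.057, 0.11 and 0.054). Cxcl16 kept its call in the fits that left out control replicate 2 or knockout replicate 1 and lost it in the other 7, at adjusted p of up to 0.17. Neither Ccl22 nor Cxcl16 passed against controls 1 to 3 alone (limma adjusted p of 0.20 and 0.33) or against controls 4 to 6 alone (0.12 for each). Cxcl16 also lost its call after median centring (adjusted p = 0.059).

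**Figure D5:**
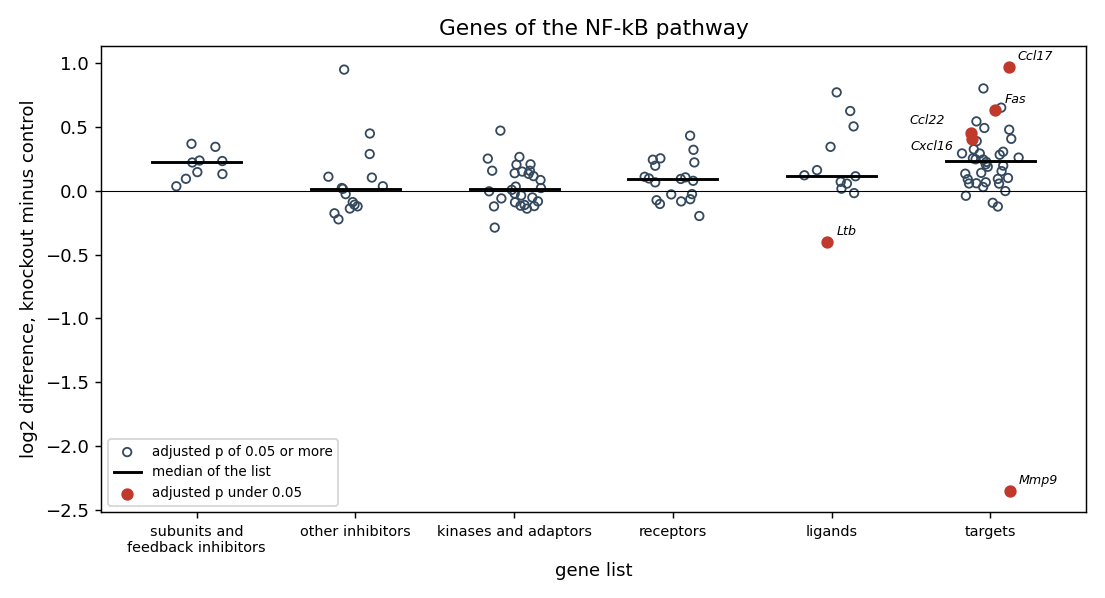
Difference of mean log2 intensity, knockout minus control, for each measured gene of the NF-kB lists, with filled points past an adjusted p of 0.05 and a bar at each list's median. The members (left) lie between 0.036 and 0.37, and the 6 filled points are Ltb among the ligands and Mmp9, Ccl17, Fas, Ccl22 and Cxcl16 among the targets.

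The 3 members with the widest range over the samples were set against all other genes by the mean absolute difference, over the 9 samples, between values taken relative to the control mean. For Tnfaip3 the nearest genes were Maff (0.049), Stk38l (0.050), Ptafr (0.052) and Tiparp (0.056), against a median of 0.21 over all genes. Maff stood at 0.50, 0.41 and 0.058 above the control mean in knockout replicates 1 to 3, and Tnfaip3 at 0.51, 0.53 and 0.064. For Nfkbiz they were Zfp36l2 (0.052), Csf1r (0.061), Map3k8 (0.063) and Siglech (0.063), of which Csf1r is on the macrophage list and Siglech on that of plasmacytoid DCs. For Bcl3 they were Tcf7l2 (0.044), Gm11595 (0.051), Mir466b-2 (0.064) and D630033O11Rik (0.064), with Tcf7l2 at 0.63 above the control mean in knockout replicate 3 and at 0.034 and -0.0017 in the others. None of these 12 genes passed the test. They were picked for lying close to members that did not pass, so the matching values follow from the choice, and the lack of calls largely does.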

How the data were processed

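Expression was measured in 9 samples, 6 controls and 3 knockouts, grouped by the genotype label. The deposited values are log2 intensities, summarised by the authors per probe (a transcript cluster) with RMA, per the submitters' processing notes. Its version is not given in the sources used here, nor is the genome build. RMA includes quantile normalization, which would remove a shift of most genes, and it compresses changes of dim probes. In the table, 34468 of 41801 rows had a value in every sample, and 23521 of these had 1 gene symbol in the platform annotation. The brightest probe by mean was kept per gene, which gave 22180 genes, and each member had 1 probe. The groups were compared with limma 3.58.1 in R 4.3.3 (two-sided, no filter on signal, no covariate, Benjamini-Hochberg over all genes, threshold 0.05), after testing on simulated data. The number of arrays limits the precision. Python 3.11.15 (pandas 2.3.3, numpy 2.4.6, matplotlib 3.10.9) made tables and figures.

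Members and lists were chosen with earlier results of these data known. The genes named were the 10 members, each pathway list's genes past 0.05 or otherwise the 3 with the smallest p, the 4 genes nearest to each of the 3 widest-ranging members, and Cebpb. Marker genes were named after their values were seen. The pathway lists had 17 other inhibitors, 33 kinases and adaptors, 19 receptors, 12 ligands and 42 targets, of which 15, 28, 19, 12 and 40 were measured. Alternatives were median centring, a second quantile normalization, eBayes with trend, array weights from limma with statmod 1.5.0, a replicate block, controls split by number, single samples left out, a filter on signal and averaged probes. Markers of T and NK cells (11 measured, means of -0.070 to -0.0018 in the knockouts) and of neutrophils (11 measured, 0.050 to 0.13) gave no call.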

Additional observations from a re-analysis of the deposited data

Results flagged for a closer look

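In 1 of the 25 genes examined, a sample stood far from the others of its group by Dixon's test, which chance alone would flag in about 1 in 20 groups. This was Bcl3, at 9.71 in control replicate 2 and at 9.40 to 9.45 in the other 5 controls. Control replicate 2 also had the highest mean of the immediate early genes (0.23) and of the red pulp macrophage markers (0.55) among the controls, and the part of either in this value was not tested.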

How the results depend on the processing

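The median difference of the members stayed between 0.17 and 0.25 in all 18 alternatives, and each member kept its sign in them except Bcl3, which ranged from -0.023 (without knockout replicate 3) to 0.37 with single samples left out. The count of members past the threshold was 0 in 16 alternatives and 1 with array weights, and 0 to 1 when single samples were left out. It was Tnfaip3 both times. Members whose groups did not overlap numbered 1 after median centring (Nfkbiz, 6.64% of all genes), and 0 to 4 with single samples left out. Against controls 4 to 6 alone they numbered 4 (Nfkb2, Rel, Nfkbiz and Bcl3, 19.8% of all genes), with the very narrow margins given above for Nfkb2 and Rel. Over all genes the count of 201 became 125 after median centring, 652 with array weights, 2 with the replicate block, 3 against the controls numbered 1 to 3, 20 against those numbered 4 to 6, 537 with the filter on signal, which tests fewer genes, and 33 to 332 with single samples left out. The split of 92 higher and 109 lower became 15 and 5 against controls 4 to 6 alone 205 and 332 with the filter, and 78 and 254, 26 and 7, or 134 and 48 when knockout replicate 1, 2 or 3 was dropped. The count of 6 over the other pathway lists became 13 with array weights, 1 with the replicate block, 1 against the controls numbered 1 to 3, 3 against those numbered 4 to 6, 10 with the filter, and 3 to 6 with single samples left out. Under the block Fas and Ccl17 lost their calls (adjusted p of 0.36 and 0.29). Same-numbered samples did not deviate together (correlations of -0.14, -0.10 and 0.047). These correlations cannot decide whether the samples were paired, since a weak shared deviation need not show in them, and the labels do not say. The block gives the estimates of controls 1 to 3 alone, since controls 4 to 6 have no partner. Apart from these the cause was not tested. The number of arrays limits precision, and background was not measured.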

Other observations

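Of 22 immediate early genes measured, 0 passed, 7 had an unadjusted limma p under 0.05, against 14.3% of all genes, and 20 had a higher mean in the knockout, against 45.0%, with a median difference of 0.13. The stress-responsive factor gene Atf3 differed by 0.56 (limma adjusted p = 0.053), the heat shock gene Hspa1b by 0.34 (adjusted p = 0.062) and the zinc finger factor gene Klf6 by 0.44 (adjusted p = 0.080). These were chosen after their values were seen.

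Values equal to all printed digits in at least 2 arrays occurred in 11491 of the 22180 genes, or 51.8%, and in 2 of the 9 members, Rel and Nfkbie.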
